A study of Bos taurus with 40 samples.

Results

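Endometrium, the lining of the uterus, was compared between day 13 and day 7 in the contralateral horn, the uterine horn opposite the corpus luteum. The comparison used 10 of the 40 RNA-seq libraries of the series, namely every library labelled as contralateral and as day 7 (5) or day 13 (5). The series also holds the ipsilateral horn, on the side of the corpus luteum, and days 5 and 16, in 8 groups of 5. All animals were synchronised heifers (Bos taurus) slaughtered on the stated day, which the design text counts from estrus and the labels call a day of pregnancy. Neither the labels nor the design text says whether an embryo was present, nor the age or breed. Each of the 10 libraries carries a different animal tag, by which it is named below, and comes from a homogenate of whole endometrium that mixes epithelium, stroma, vessels and immune cells. In such bulk tissue, fewer cells of a type and less RNA per cell cannot be told apart.

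After ovulation the corpus luteum secretes progesterone, which acts on the endometrium through the progesterone receptor PGR in stroma and epithelium. Continued exposure to progesterone is known to lower PGR in the epithelium of ruminants, and the glands then change what they secrete into the uterine lumen, the fluid on which the free-living conceptus depends. In cattle the interval runs from the blastocyst in the uterus to the start of conceptus elongation. The embryo normally enters the horn on the side of ovulation, so the contralateral horn usually does not receive it first.

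The 10 libraries held similar numbers of reads in genes, 33.3 ± 2.14 M (SD, n = 5) on day 7 and 34.1 ± 2.12 M on day 13 (exact permutation p = 0.587, two-sided). A marker of epithelium and a marker of stroma were present in every library. The keratin KRT8 lay between 154 and 271 CPM (counts of a gene scaled to the total of its library) and the stromal proteoglycan DCN between 2220.4 and 4104.5 CPM, both chosen after their values were seen. None of the 16 cell type lists differed in mean level between the days once adjusted over 22 library measures. The smallest p among them was that of nerve and Schwann cell markers, 0.45 lower on day 13 on the log2 scale (exact p = 0.0317, adjusted 0.233). The mitochondrial share was 0.241 ± 0.0804% and 0.359 ± 0.132% (exact p = 0.135). Reads in microRNA genes made up 0.00698 to 0.00887% of a library on day 7 and 0.00920 to 0.0109% on day 13, without overlap, and so did reads in tRNA genes (for each, exact p = 0.00794, the smallest possible, and 0.0873 adjusted).

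The day was the main axis along which the libraries differed. The first principal component of the 2000 most variable genes took 59.1% of the variance and ran from -38.3 to -26.5 on day 7 and from 26.2 to 41.7 on day 13, while the second took 11.4%. Of 18642 genes tested with edgeR's quasi-likelihood test, 5388 (28.9%) differed at a Benjamini-Hochberg adjusted p below 0.05. Higher on day 13 were 2530 (13.6%) and lower were 2858 (15.3%). At 2-fold or more 1796 genes changed (9.63%), 801 higher (4.3%) and 995 lower (5.34%), and at 4-fold or more 221 and 357. The 5 libraries of day 13 lay wholly above those of day 7 for 1837 genes (9.85%) and wholly below for 2156 (11.6%). The median log2 fold change of all tested genes was 0.01 and the median standard error 0.18. Leaving out each library in turn gave 4320 to 5281 genes, fewest without the day 13 library 4-1314. When the log2 share of those small RNA genes was fitted beside the day, 2276 genes passed, 984 higher and 1292 lower. This small RNA share counts reads in microRNA and tRNA genes of mRNA libraries, and small RNA itself was not measured. The share and the day cannot be told apart, and the named genes that did not pass in that fit are listed in the last paragraph.

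**Figure D1:**
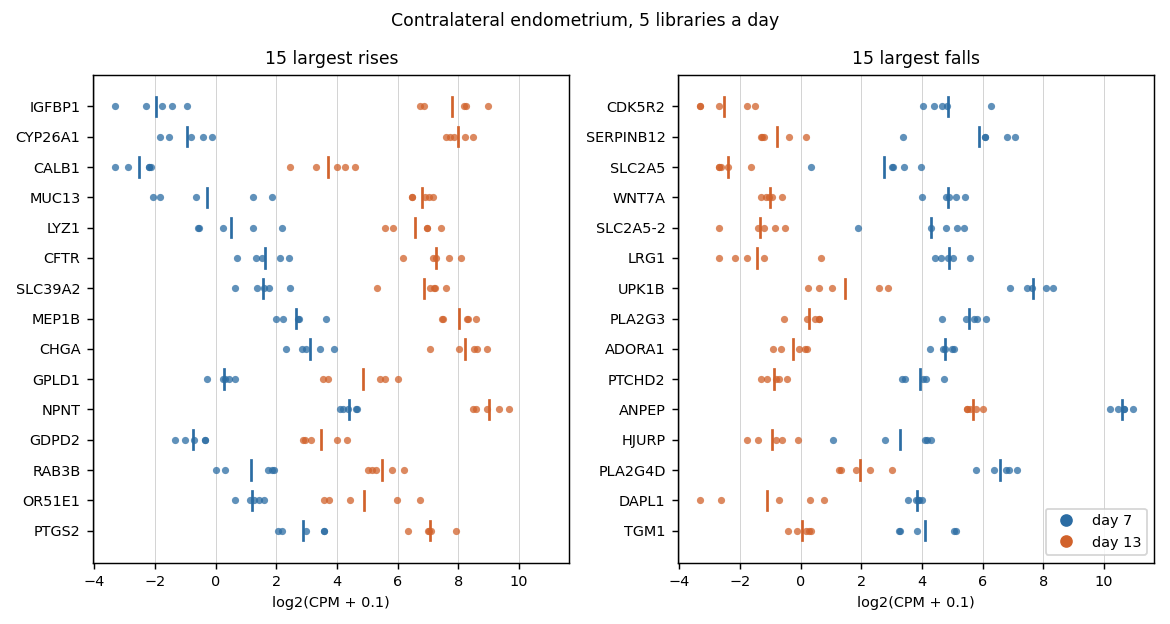
Levels of the 15 genes with the largest rises (left) and the 15 with the largest falls (right) in contralateral endometrium, as log2(CPM + 0.1). Each point is 1 of 5 libraries of day 7 (blue) or day 13 (orange), and the bars are means. In every gene the libraries of the 2 days form separate clusters, as the rule that chose them required. IGFBP1 goes from at most 0.414 CPM to at least 107 CPM.

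The largest rise was that of IGFBP1, which encodes a secreted protein that binds insulin-like growth factors and is a known product of the ruminant endometrium before implantation. In the day 7 libraries (2-1337, 2-371, 4-064, 5-117 and 6-338, in this order throughout) it stood at 0.414, 0.195, 0.271, 0.104 and 0 CPM. In the day 13 libraries (4-1314, 5-140, 5-167, 6-203 and 8-275) it stood at 505, 107, 116, 289 and 304 CPM. Nearly silent in all 5 earlier libraries, it was abundant in all 5 later ones, a log2 fold change of 10.35 ± 0.70 (SE, 5 libraries a day, adjusted p = 5.87e-06). Values in this form below are log2 fold changes of day 13 over day 7 with their SE, and a gene is said to rise or fall only where its adjusted p was below 0.05. CYP26A1, the enzyme that degrades retinoic acid, behaved alike with less spread. Its levels were 0.473, 0.649, 0.812, 0.242 and 0.179 CPM on day 7 and 358, 194, 295, 233 and 209.6 CPM on day 13 (9.08 ± 0.37, adjusted p = 4.38e-07).

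Several of the other large rises belong to transport across epithelium and to the cell surface. The chloride channel CFTR went from 1.54, 2.40, 5.23, 2.77 and 4.30 CPM to 271, 72.8, 144, 205 and 152 CPM (5.70 ± 0.44). CALB1, a protein that binds calcium in the cytosol, was at 0 to 0.130 CPM on day 7 and at 5.36 to 23.9 CPM on day 13 (7.45 ± 0.60). The groups lay far apart in both genes, and library 5-140 was the lowest of day 13 in each. The zinc transporter SLC39A2 (5.43 ± 0.47), the membrane mucin MUC13 (6.42 ± 0.70) and meprin beta, MEP1B, a protease of epithelial surfaces (5.35 ± 0.38), rose as well. MUC13 was at 3.49 and 2.24 CPM in the day 7 libraries 2-1337 and 2-371 and below 0.6 CPM in the other 3, and its change was 7.20 without library 2-1337. TMPRSS4, a membrane serine protease, was at 0 to 0.0895 CPM and then at 1.02 to 2.36 CPM. With CALB1 it made up the 2 genes with a gene symbol and a mean of at most 0.1 CPM on day 7 and at least 1 CPM in every library of day 13.

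The other large rises were of mixed function. CHGA, chromogranin A of secretory granules, rose from a range of 4.92 to 14.8 CPM to one of 134 to 493 CPM (5.18 ± 0.42). Nephronectin, NPNT, a matrix ligand of integrins, rose from 24.9, 25.1, 18.4, 20.3 and 16.9 CPM to 818, 354, 641, 489 and 385 CPM (4.67 ± 0.26), with little spread in either group. RAB3B, a GTPase of vesicle release (4.26 ± 0.43), GPLD1, which cleaves the lipid anchor of surface proteins (4.99 ± 0.52), the phosphodiesterase GDPD2 (4.53 ± 0.39), and the G protein coupled receptor OR51E1 (4.24 ± 0.64, and 3.58 without library 4-1314) also rose. A lysozyme gene, LYZ1, was 5.87 ± 0.63 higher (6.55 without library 2-1337), a value that is uncertain because cattle carry several near-identical lysozyme genes. All of these groups were free of overlap, as the rule that chose these genes required.

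Among the largest falls, that of ANPEP, aminopeptidase N of epithelial surfaces, had the most reads behind it. It stood at 1391, 1607, 1625, 1971 and 1173 CPM on day 7 and at 55.1, 44.3, 47.9, 44.3 and 63.98 CPM on day 13 (-4.92 ± 0.18, adjusted p = 2.23e-07). The citrate transporter SLC13A5 followed the same course, from 1991, 2032, 2345, 3033 and 1142 CPM to 103, 278, 168, 289 and 205 CPM (-3.33 ± 0.33). In both genes library 5-117 was the highest and 6-338 the lowest of day 7, and no library of one day reached the other. WNT7A, a ligand made by the luminal epithelium of the mouse uterus, fell from 35.01, 27.5, 29.6, 42.4 and 15.96 CPM to 0.307 to 0.551 CPM (-6.21 ± 0.30). The bladder-type surface protein UPK1B fell from a range of 119 to 320.4 CPM to one of 1.08 to 7.32 CPM (-5.94 ± 0.59), and the adenosine receptor ADORA1 from a range of 19.1 to 33.3 CPM to one of 0.429 to 1.05 CPM (-5.14 ± 0.28).

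CDK5R2, an activator of the kinase CDK5, was the gene with the steepest fall, from 76.6, 28.3, 25.1, 21.1 and 16.3 CPM to 0, 0, 0.193, 0.0555 and 0.251 CPM (-8.28 ± 0.74, and -8.91 without library 8-275). With the fructose transporter SLC2A5 and BSP3, a gene of the seminal plasma protein family, it formed the 3 genes with a gene symbol that went from at least 1 CPM in every library to a mean of at most 0.1 CPM. SLC2A5 fell by 6.40 and its listed copy SLC2A5-2 by 6.21 on the log2 scale, and reads may have been split between them, so both values are uncertain. The serpin SERPINB12 (-7.17 ± 0.71), the secreted glycoprotein LRG1 (-6.10 ± 0.69, and -7.43 without library 6-203), the transglutaminase TGM1 (-4.40 ± 0.45) and PTCHD2 (-5.13 ± 0.34) fell too. So did DAPL1 (-4.42 ± 0.76, and -5.02 without library 5-140) and HJURP, the chaperone that loads the centromeric histone (-4.74 ± 0.64). Phospholipases A2, which release fatty acids from membranes, were among them, the secreted PLA2G3 (-5.41 ± 0.33) and the cytosolic PLA2G4D, from a range of 54.6 to 139 CPM to one of 2.32 to 8.02 CPM (-4.58 ± 0.40).

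The 10 genes with the most reads among those that changed 2-fold or more fell in 7 cases and rose in 3. Beside ANPEP and SLC13A5 the falls were the calcium-binding protein RCN1 of the endoplasmic reticulum (-2.15 ± 0.17), the fatty aldehyde dehydrogenase ALDH3A2 (-1.75 ± 0.13), the glycolipid carrier GM2A (-1.66 ± 0.18), the citric acid cycle enzyme OGDH (-1.60 ± 0.24) and ENPP5 (-1.09 ± 0.21). The rises were the protease inhibitor TIMP2, from 449, 407, 653, 706 and 373 CPM to 2635, 1962, 1896, 1831 and 1553 CPM (1.93 ± 0.21), the gland peptide GRP, gastrin-releasing peptide, from a range of 406 to 1096 CPM to one of 2017 to 3048 CPM (1.79 ± 0.29), and TXNIP, an inhibitor of thioredoxin and of glucose uptake (1.02 ± 0.16). Neither TIMP2 nor GRP overlapped between the days.

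PGR itself fell, from 8.58, 7.05, 4.09, 7.71 and 9.64 CPM to 2.63, 3.97, 3.94, 4.66 and 2.74 CPM (-1.04 ± 0.25, adjusted p = 0.0103). The day 7 library 4-064 lay within the range of day 13, so the groups overlapped by that library. Beside the small RNA share the change was -0.64 (adjusted p = 0.373). The estrogen receptor ESR1 was at 14.1 to 20.4 and then 8.90 to 15.6 CPM (-0.48 ± 0.17, adjusted p = 0.0488), a call that was lost without each library other than 2-1337 and 6-203 (adjusted p of 0.0522 to 0.0976). GREB1, a gene that estrogen receptors induce, fell by 1.62 on the log2 scale, and FKBP5, a chaperone of steroid receptors, by 0.87. Of the membrane progesterone receptors, PAQR8 fell from a range of 58.3 to 83.7 CPM to one of 19.4 to 31.6 CPM (-1.55 ± 0.14) while PAQR5 rose from a range of 0.260 to 0.503 CPM to one of 1.73 to 4.52 CPM (3.16 ± 0.31) and PAQR6 by 0.66. The glucocorticoid receptor NR3C1 (0.75 ± 0.15) and the progesterone-binding membrane protein PGRMC2 (0.51 ± 0.08) rose. The oxytocin receptor OXTR stood at 10.3, 14.7, 2.50, 3.53 and 12.5 CPM on day 7 and 1.93, 7.71, 2.59, 1.83 and 2.51 CPM on day 13 and did not pass (-1.40 ± 0.55, adjusted p = 0.0814). OXTR did pass, as lower, with DESeq2, with all 20 contralateral libraries fitted, and without library 4-064 or 5-140. In the list of steroid hormone receptors and cofactors, 4 of 22 tested members were higher and 7 lower, with a median of -0.10, where 13.6% and 15.3% of all genes were higher and lower. The lower count was 4 without each of the libraries 5-117, 6-338, 4-1314 and 5-167.

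Among transcription factors of the uterus, 6 of 29 were higher and 4 lower (34.5% called, where 28.9% of all genes were, median 0.15). The homeobox genes MSX1 and MSX2, which in mice are expressed in the uterus up to implantation, both fell. MSX1 went from 649, 669, 786, 719 and 689 CPM to 164, 281, 272, 292 and 165 CPM (-1.58 ± 0.18), and MSX2 from a range of 9.55 to 17.6 CPM to one of 1.70 to 2.39 CPM (-2.73 ± 0.23). GATA2, which in mice acts with PGR in the uterus, fell by 1.09 on the log2 scale. FOXO1, a factor of decidual and epithelial differentiation, rose from 46.8, 53.8, 60.03, 56.1 and 53.7 CPM to 116, 104, 108, 119 and 101 CPM (1.02 ± 0.09). The rises of STAT6 (0.86 ± 0.13), of KLF9, a partner of PGR (0.79 ± 0.15), of KLF5 (0.76 ± 0.14) and of EMX2 (0.58 ± 0.09) were smaller, and for none of these genes did the days overlap.

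**Figure D2:**
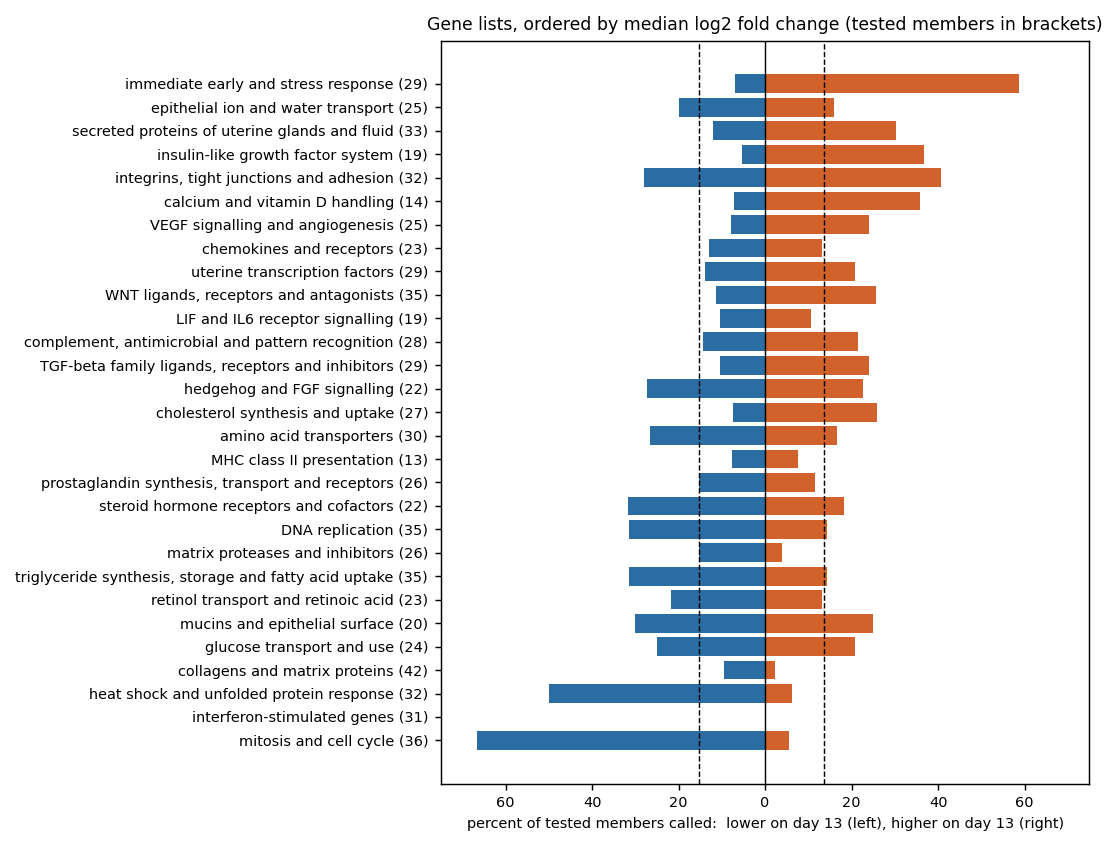
Share of the tested members of each of the 29 pathway lists that were lower (blue, left) or higher (orange, right) on day 13 at an adjusted p below 0.05. Dashed lines give the shares over all tested genes, 15.3% lower and 13.6% higher, and lists are ordered by median log2 fold change. Mitosis and the unfolded protein response stand out on the lower side and immediate early genes on the higher side, while no interferon-stimulated gene is called.

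The list of secreted proteins of glands and uterine fluid had 10 of 33 members higher and 4 lower (42.4% called, median 0.32). That of the insulin-like growth factor system had 7 of 19 higher and 1 lower (42.1% called, median 0.29). Over all genes 28.9% were called. The higher count of the insulin-like growth factor list was 4 without each of the libraries 2-371, 6-338 and 4-1314. CST6, a secreted inhibitor of cysteine proteases, rose from 15.002, 9.90, 12.8, 10.1 and 8.77 CPM to 154, 62.4, 125, 162 and 108 CPM (3.44 ± 0.27). PIGR, which carries polymeric antibodies across epithelium (3.29 ± 0.54), the retinol carrier RBP4 (1.42 ± 0.18), clusterin, CLU (0.99 ± 0.16), and the lysosomal protease CTSZ (0.64 ± 0.10) were also higher. Lactoferrin, LTF, an iron-binding antimicrobial protein, went the other way, from 649, 1097, 913, 1437 and 659.7 CPM to 48.9, 24.7, 63.4, 127 and 38.7 CPM (-3.96 ± 0.45), with library 5-117 the highest of day 7 and 6-203 the highest of day 13. The uterine serpin gene SERPINA14, known for its induction by progesterone, was at 6.10 to 26.8 and 14.9 to 97.9 CPM and did not pass (1.37 ± 0.52, adjusted p = 0.0714). SERPINA14 did pass, as higher, with DESeq2 and without library 5-140. Beside IGFBP1, IGFBP2 rose from a range of 9.84 to 34.5 CPM to one of 34.8 to 79.1 CPM (1.53 ± 0.38), IGFBP3 fell by 1.05 on the log2 scale, and IRS2, an adaptor of insulin and IGF receptors, rose from 12.01, 10.5, 10.5, 12.1 and 4.27 CPM to 47.9, 43.7, 34.9, 41.98 and 43.9 CPM (2.11 ± 0.24).

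PTGS2, the inducible enzyme at the head of prostaglandin synthesis, rose from 11.8, 11.7, 4.03, 4.43 and 7.76 CPM to 243, 81.8, 131, 137 and 128 CPM (4.18 ± 0.39, adjusted p = 3.57e-05). PLA2G4A, the phospholipase that supplies its substrate, rose from a range of 36.1 to 53.4 CPM to one of 94.7 to 173 CPM (1.46 ± 0.17), and the prostaglandin E2 receptor PTGER2 by 0.96. Prostacyclin synthase, PTGIS (-0.91 ± 0.13), the synthase PTGES2 (-0.71 ± 0.12) and the lipid-sensing receptors PPARD (-0.72 ± 0.10) and PPARA (-0.41 ± 0.10) fell. That made 3 of 26 members higher and 4 lower, close to the shares over all genes, with a median of -0.06. In the retinoid list 3 of 23 were higher and 5 lower (34.8% called, where 28.9% of all genes were, median -0.18). Its lower count was 1 or 2 without each library other than 4-064 and 8-275.

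Ligands and receptors of several signalling families changed in opposite directions, as did genes at large (28.9% called, 13.6% higher and 15.3% lower). In the hedgehog and FGF list 5 of 22 were higher and 6 lower (50% called, median 0.05). The higher count was 3 without each of the libraries 5-117, 4-1314, 5-167 and 8-275. Indian hedgehog, IHH, which in mice carries the progesterone signal from epithelium to stroma, fell from 175, 189, 335, 247 and 218 CPM to 29.2, 51.5, 83.3, 72.95 and 40.96 CPM (-2.06 ± 0.29). FGF18 (-3.82 ± 0.30) and the receptor FGFR3 (-1.97 ± 0.25) fell, whereas FGF9 (1.32 ± 0.20) and SPRY2, a feedback inhibitor of FGF receptors (1.13 ± 0.14), rose. Of the WNT list 9 of 35 were higher and 4 lower (37.1% called, median 0.14). The higher count was 5 without library 2-371 or 4-1314, and the lower count 7 without 8-275. WNT11 fell by 1.18 beside the fall of WNT7A, and the secreted WNT inhibitor DKK1 rose from 20.3, 14.03, 8.18, 11.1 and 4.21 CPM to 57.2, 23.8, 34.8, 31.2 and 39.9 CPM (1.69 ± 0.37). The co-receptor LRP6 rose by 0.71.

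In the TGF-beta family 7 of 29 members were higher and 3 lower (34.5% called, median 0.05). Myostatin, MSTN, a ligand of the family first known from muscle, rose from 0.799, 0.909, 0.722, 0.761 and 2.42 CPM to 30.2, 18.2, 23.7, 15.5 and 13.6 CPM (4.16 ± 0.40). Library 6-338 held the highest day 7 level and still lay below all 5 later ones. The inhibitory SMAD7 rose by 0.68, the antagonist NOG by 1.84 from under 0.6 CPM, and the receptor ACVR1 fell by 0.50. Among receptors of the LIF and IL6 family, LIFR rose from 113, 158, 96.3, 148 and 169 CPM to 412, 224, 293, 292 and 257 CPM (1.11 ± 0.19) and IL6R from a range of 204 to 279 CPM to one of 485 to 568 CPM (1.18 ± 0.11). Their shared chain IL6ST fell by 0.45 and the feedback inhibitor SOCS2 by 0.65. Of that list 2 of 19 were higher and 2 lower (21.1% called where 28.9% of all genes were, median 0.13).

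Sugar carriers changed in both directions. The sodium-coupled glucose transporter SLC5A1 rose from 15.4, 31.8, 18.9, 28.3 and 17.8 CPM to 272, 155, 226, 219 and 137 CPM (3.17 ± 0.26), the related SLC5A11 from a range of 0.0602 to 0.567 CPM to one of 2.67 to 8.49 CPM (4.03 ± 0.55), and the facilitative carrier SLC2A1 from a range of 73.4 to 87.6 CPM to one of 148 to 257 CPM (1.30 ± 0.15). Of the other facilitative carriers in the list SLC2A4 rose (0.61 ± 0.18) and SLC2A3 fell (-0.97 ± 0.25) beside SLC2A5, SLC2A4 and SLC2A3 being named after their values were seen. Neither passed beside the small RNA share (adjusted p of 0.141 for SLC2A4 and 0.572 for SLC2A3), and SLC2A4 did not pass without library 2-1337 (0.0505) or 8-275 (0.0549), nor with all 40 libraries fitted (0.0657). PDK4, which closes pyruvate dehydrogenase, rose by 1.34. Lactate dehydrogenase, LDHA, fell from 352, 418, 320.2, 372 and 336 CPM to 46.9, 107, 74.6, 93.7 and 53.7 CPM (-2.26 ± 0.22), and the enzymes PFKL of glycolysis (-0.72 ± 0.09) and FBP1 of gluconeogenesis (-2.69 ± 0.35) fell with it. In all 5 of 24 glucose genes were higher and 6 lower (45.8% called, where 28.9% of all genes were, median -0.24). Of the amino acid transporters 5 of 30 were higher and 8 lower (43.3% called, median 0.01). Their lower count was 5 without library 4-064 or 8-275. SLC6A20, a carrier of proline, fell from a range of 51.2 to 208 CPM to one of 10.01 to 27.4 CPM (-3.05 ± 0.46), the taurine carrier SLC6A6 fell by 1.08 on the log2 scale, and the glutamate carrier SLC1A1 rose by 1.00.

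In the list of triglyceride synthesis, storage and fatty acid uptake, 5 of 35 were higher and 11 lower (median -0.16). That made 45.7% called, where 28.9% of all genes were. The fatty acid activating enzymes ACSL4 (-2.13 ± 0.20) and ACSL3 (-0.91 ± 0.13) fell, the first from 877, 1479, 1061, 1294 and 1055 CPM to 292, 377, 222, 216 and 207 CPM. The desaturase SCD (-1.20 ± 0.20), the fatty acid carrier SLC27A4 (from 22.9 to 28.3 CPM down to 11.1 to 14.5 CPM) and lipoprotein lipase, LPL, at 3.93 to 9.69 and then 0.766 to 3.24 CPM (-1.87 ± 0.43), were lower too. ACACA, the first enzyme of fatty acid synthesis (0.87 ± 0.09), the desaturase FADS2 (1.29 ± 0.17) and the fatty acid carrier SLC27A2 (3.21 ± 0.39) rose. FABP3, a cytosolic fatty acid carrier, did not pass (-1.02 ± 0.54, adjusted p = 0.180). Cholesterol synthesis and uptake had 7 of 27 members higher and 2 lower (33.3% called, median 0.03), and the lower count was 5 without library 5-140. HMGCS1 (1.10 ± 0.21), SQLE (0.89 ± 0.21) and CYP51A1 (0.95 ± 0.19), enzymes of sterol synthesis, rose without overlap, and the later enzyme TM7SF2 fell by 0.82.

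Among ion and water transporters 4 of 25 were higher and 5 lower (36% called, where 28.9% of all genes were, median 0.38). The higher count was 2 without each of the libraries 2-1337, 4-064, 5-117 and 4-1314, and the lower count 3 without 4-1314. Opposite to CFTR, the epithelial sodium channel subunit SCNN1A fell from 121, 104, 130.1, 134 and 60.04 CPM to 12.7, 30.6, 14.2, 24.2 and 13.8 CPM (-2.52 ± 0.30), and the bicarbonate transporter SLC4A7 fell by 1.22 on the log2 scale. Of 14 genes of calcium and vitamin D handling 5 were higher and 1 lower (42.9% called, median 0.25). Their higher count was 2 or 3 without each of the libraries 2-371, 4-064, 5-117, 6-338, 4-1314 and 8-275. The vitamin D receptor VDR rose from 7.22, 9.90, 7.88, 15.1 and 12.8 CPM to 45.5, 25.7, 64.7, 24.6 and 39.3 CPM (1.92 ± 0.30).

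Genes of mucins and surface glycans changed in both directions. Of 20 tested 5 were higher and 6 lower (55% called, where 28.9% of all genes were, median -0.21). The higher count was 3 without library 5-167. Against the rise of MUC13, MUC20 fell from a range of 11.8 to 56.9 CPM to one of 2.65 to 4.77 CPM (-3.12 ± 0.36) and MUC4 from a range of 0.747 to 5.33 CPM to one of 0.0635 to 0.184 CPM (-4.38 ± 0.61). The fucosyltransferase FUT2, which caps surface glycans, fell from 22.5, 32.2, 44.1, 26.5 and 56.4 CPM to 2.57, 2.82, 4.88, 5.27 and 2.46 CPM (-3.33 ± 0.33). DPP4, a peptidase of the surface as ANPEP is, rose from a range of 0.888 to 1.96 CPM to one of 4.88 to 13.3 CPM (2.68 ± 0.34).

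Integrins and tight junctions held more called members than most lists, 13 of 32 higher and 9 lower, with a median of 0.27. That made 68.8% called, where 28.9% of all genes were. CLDN4 rose from 29.98, 38.5, 30.3, 39.8 and 24.5 CPM to 295, 139, 185, 236 and 188 CPM (2.68 ± 0.21), while CLDN1, another tight junction claudin, fell from 306, 360.3, 419, 294 and 390.1 CPM to 129, 179, 128, 145 and 110.2 CPM (-1.35 ± 0.14). Neither pair of groups overlapped. The integrin subunits ITGB6 (2.92 ± 0.34) and ITGB5 (2.18 ± 0.29) rose and the collagen-binding ITGA2 fell by 1.27 on the log2 scale. ITGB5 was at 59.004, 62.3, 62.8, 56.5 and 43.95 CPM on day 7 and at 305, 93.3, 273, 335 and 276 CPM on day 13, with library 5-140 well below the other 4. The junction protein OCLN (0.86 ± 0.12) rose, and CTNNB1, beta-catenin, fell by 0.69.

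Genes of cell division fell together. Of 36 tested members of the mitosis list 24 were lower and 2 higher, with a median of -1.53, against 15.3% lower over all genes. Beside the small RNA share 12 were lower, in a fit where 1292 of 18642 genes were lower. MKI67, the proliferation antigen, was at 52.97, 71.3, 24.5, 14.6 and 94.3 CPM on day 7 and 4.14, 2.09, 1.32, 3.63 and 4.75 CPM on day 13 (-4.01 ± 0.54, adjusted p = 0.000331). UBE2C, which acts in the exit from mitosis, was at 18.997, 20.1, 7.85, 3.22 and 23.2 CPM and then 0.888, 0.539, 0.606, 0.943 and 0.950 CPM (-4.21 ± 0.51). The day 7 libraries 4-064 and 5-117 were the lowest of their group in both genes and still lay above all 5 of day 13. The kinesins KIF2C (-4.10 ± 0.56) and KIF20A (-3.62 ± 0.48), survivin, BIRC5 (-3.50 ± 0.49), cyclin CCNB2 (-3.22 ± 0.44), CENPE of the kinetochore (-3.01 ± 0.44) and the kinase AURKB (-2.93 ± 0.39) fell as well. The higher count was 1 without each of the libraries 2-1337, 2-371, 6-338, 5-140 and 6-203.

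DNA replication showed a smaller imbalance, with 11 of 35 lower and 5 higher and a median of -0.12. That made 45.7% called, where 28.9% of all genes were. RRM2, a subunit of ribonucleotide reductase (-3.41 ± 0.51), UHRF1, which maintains DNA methylation (-2.37 ± 0.34), and the polymerase POLE (-1.95 ± 0.22) fell, and MCM5 of the replicative helicase fell by 0.70. The ligase LIG1 rose by 0.46 and RPA2 by 0.72. The higher count was 3 without each of the libraries 2-1337, 5-117, 4-1314, 5-140 and 6-203.

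**Figure D3:**
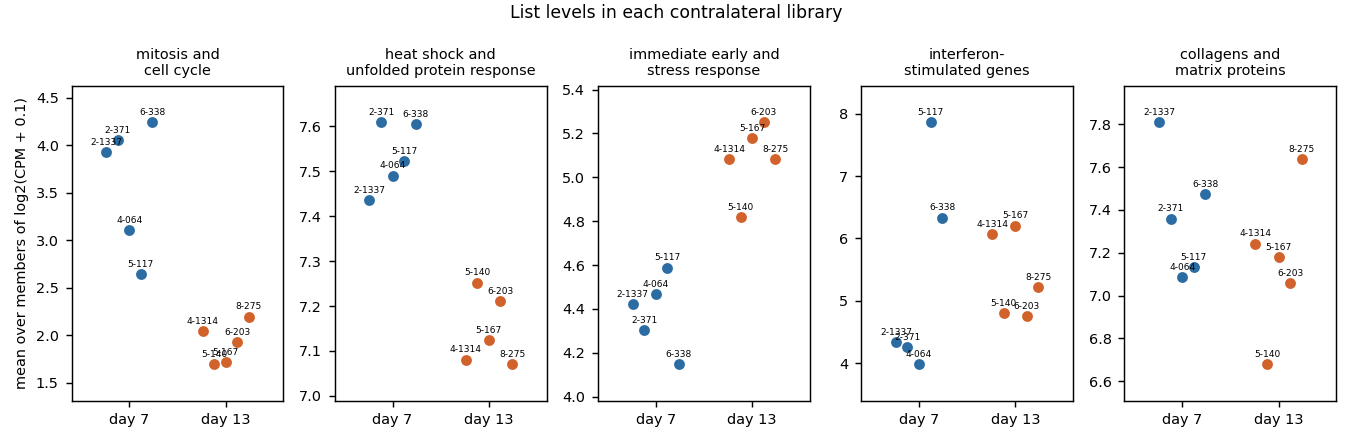
Mean level of 5 gene lists in each contralateral library, as the mean over members of log2(CPM + 0.1), on day 7 (blue) and day 13 (orange), with the animal tag beside each point. Mitosis genes separate the days, with 4-064 and 5-117 lowest on day 7. Protein folding and immediate early genes separate the days in opposite directions. Interferon-stimulated and matrix genes overlap, and library 5-117 stands highest among the interferon-stimulated levels.

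Genes of protein folding in the endoplasmic reticulum mostly fell where they were called. Of 32 heat shock and unfolded protein response genes 16 were lower and 2 higher (56.2% called, where 28.9% of all genes were, median -0.48). The higher count was 1 without each of the libraries 4-064, 5-117, 4-1314, 5-140 and 8-275. HSPA5, the main chaperone of the compartment, fell from 554, 629, 552, 571 and 529.8 CPM to 317, 349.9, 327, 334 and 341 CPM (-0.76 ± 0.07). The spread within each day was small beside that step. CRELD2 (-1.38 ± 0.12) and MANF (-1.10 ± 0.10), proteins induced by folding stress, the lectin chaperone CANX (-0.84 ± 0.11), DNAJB11 (-0.78 ± 0.10) and the disulfide isomerases PDIA3 (-0.72 ± 0.09), PDIA4 (-0.67 ± 0.08) and PDIA6 (-0.78 ± 0.08) fell with no overlap.

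Immediate early and stress response genes mostly rose, with 17 of 29 members higher and 2 lower and a median of 0.82. That made 65.5% called, where 28.9% of all genes were. EGR1, a transcription factor induced within minutes of many stimuli, went from 17.2, 20.4, 24.9, 15.6 and 18.2 CPM to 79.2, 29.3, 64.8, 90.7 and 59.8 CPM (1.75 ± 0.26). IER3 rose from a range of 15.1 to 16.98 CPM to one of 33.3 to 53.6 CPM (1.47 ± 0.13), and CTGF, a secreted target of YAP and TGF-beta signalling, from 89.6, 81.3, 103, 124 and 63.7 CPM to 419, 542, 310.4, 377 and 392 CPM (2.14 ± 0.19). GADD45A (1.21 ± 0.11) and KLF6 (1.05 ± 0.10) rose, and DUSP6 fell by 0.37. The lower count was 1 without library 4-064 or 8-275. The interval from slaughter to sampling was not tested, since the labels do not give it.

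Collagens and matrix proteins changed little by count, 1 of 42 higher and 4 lower, although their median was -0.29. That made 11.9% called, where 28.9% of all genes were. Without library 8-275 the lower count was 8, without each of the libraries 2-1337, 5-167 and 6-203 it was 2, and without 2-1337, 6-338 or 5-140 the higher count was 2. Fibronectin, FN1 (-0.61 ± 0.16), and the collagen crosslinking enzyme LOXL1 (-0.85 ± 0.18) fell, and POSTN, periostin of stromal matrix, rose by 1.12. Of 26 matrix proteases and inhibitors TIMP2 was higher and 4 were lower (19.2% called, median -0.14), among them MMP15 (-1.16 ± 0.27) and TIMP3 (-0.83 ± 0.21). Without library 5-140 the higher count was 2. In the angiogenesis list 6 of 25 were higher and 2 lower (32% called, close to the share over all genes, median 0.23). The lower count was 1 without each library other than 4-064, 6-338 and 5-167. EPAS1, a hypoxia-inducible factor, rose from 255, 185, 207, 177 and 97.5 CPM to 643, 322, 391, 442 and 434 CPM (1.28 ± 0.24), HIF1A by 0.81, and the VEGF receptor KDR by 0.92.

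No interferon-stimulated gene passed in either direction with edgeR, 0 of 31, where 28.9% of all genes did. The median of the list was -0.77 where that of all genes was 0.01. At an unadjusted p below 0.05 there was 1, DESeq2 called 1 and limma-voom 0. The libraries differed widely within each day. ISG15, a ubiquitin-like protein induced by interferon, was at 4.38, 4.68, 2.83, 404 and 57.03 CPM on day 7 and 44.3, 10.1, 63.8, 9.16 and 16.2 CPM on day 13 (-1.72 ± 1.26, adjusted p = 0.339). MX1, an antiviral GTPase, was at 56.96, 76.1, 38.6, 1588 and 561 CPM and 479.9, 131, 571, 118 and 217 CPM (-0.62 ± 0.95, adjusted p = 0.668). Libraries 5-117 and 6-338 carried the high values of day 7, and 4-1314 and 5-167 those of day 13. HERC5 (-0.66 ± 0.24, adjusted p = 0.0617) and IRF7 (-1.08 ± 0.51, adjusted p = 0.135) had the smallest p of the list, and library 5-117 was the highest of day 7 in both. Leaving out library 2-1337 or 6-338 gave 1 lower member. Without library 5-117 the sign turned, to 0.74 for ISG15 (adjusted p = 0.606) and 0.73 for MX1 (adjusted p = 0.547). The interferon gene listed as IFNT2, chosen after its values were seen, stood at 0.533 to 1.30 CPM on day 7 and 0.524 to 2.22 CPM on day 13. Of the 15 trophectoderm markers PAG11, CSH2, PRP1 and TKDP1 had no reads in the 10 libraries. PAG2, PAG8, PAG12 and CDX2 had reads but stayed below 1 CPM in every library. Of these 15 markers 7 were tested, PTGS2 higher and 3 lower, including ASCL2 (-2.80 ± 0.26). The tested PAG1, GATA3 and IFNT2 were not called.

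Other immune lists held calls in both directions, where 28.9% of all genes were called. Of 28 complement, antimicrobial and pattern recognition genes 6 were higher and 4 lower (35.7% called, median 0.12). CD59 rose from 68.1, 57.8, 51.3, 54.7 and 58.8 CPM to 226, 237, 206, 163 and 185 CPM (1.81 ± 0.12) and CD55 by 1.33, both of which shield cells from complement. The pattern receptor NOD2 fell by 1.24 on the log2 scale. The complement gene C5 was at 0.592, 23.1, 24.8, 27.3 and 35.9 CPM and then 0.460, 1.84, 1.19, 2.05 and 1.03 CPM (-4.08 ± 0.80), and its day 7 library 2-1337 lay among those of day 13. With limma-voom C5 did not pass (-3.39, adjusted p = 0.124). Of 23 chemokines and receptors 3 were higher and 3 lower (26.1% called, median 0.18). Without library 5-140 the higher count was 6, and without each of the libraries 4-1314, 5-167 and 8-275 it was 1. The mucosal chemokine CCL28 fell from a range of 4.42 to 9.26 CPM to one of 0.503 to 1.17 CPM (-3.14 ± 0.32) and CXCL3 rose by 1.54. In the list of MHC class II presentation LGMN, a lysosomal protease, was higher (2.16 ± 0.27) and BOLA-DOB lower (-1.80 ± 0.30), of 13 tested (15.4% called). Without library 5-117 the higher count was 6.

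Cell type markers give RNA levels only, and the share of each cell type was not measured. Of the epithelium markers 50% were themselves called, where 28.9% of all genes were. Epithelium markers had 4 of 20 higher and 6 lower (median -0.17) and the same mean level on both days, 6.47 ± 0.145 and 6.47 ± 0.222 (mean log2 CPM, SD, n = 5), with summed levels of 2495.5 to 3370 CPM and 2386.3 to 3584.5 CPM. The lower count was 3 without library 4-1314 or 5-167. EPCAM, an adhesion protein of epithelium, rose by 0.75, and RAB25, a trafficking protein of epithelium, fell by 0.96. In stroma 4 of 17 were higher and 0 lower (3 lower without library 8-275), and the sums were 18842 to 35412 CPM and 13605 to 29055 CPM. Smooth muscle had 4 of 16 higher, MYH11 (0.76 ± 0.17) and CALD1 (0.60 ± 0.11) among them, with sums of 879 to 1447 CPM and 1091 to 1597 CPM on days 7 and 13. MYH11 did not pass when all 20 contralateral libraries (adjusted p = 0.0781) or all 40 (adjusted p = 0.208) were fitted, and without library 8-275 1 member was lower. Of 16 endothelial markers 2 were higher. That count was 5 without library 5-140 and 1 without each other library except 2-1337 and 4-064, and 1 member was lower without 6-338 or 6-203. Of 17 ciliated cell markers, whose sums ran from 246 to 1127 CPM and from 169 to 780.5 CPM, 1 was lower. That count was 3 without library 5-140, 2 without 2-1337 and 0 without each other library except 5-117. Of 8 nerve and Schwann cell markers TUBB3 (-3.81 ± 0.25) and S100B (-1.62 ± 0.23) were lower, and 1 was higher without library 5-140. Their sums did not overlap, with 331 to 445 CPM on day 7 and 138 to 224 CPM on day 13, of which S100B made up 275 to 393 and 66.5 to 158 CPM.

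Few leukocyte markers passed, where 28.9% of all genes did. Of 19 T and NK cell markers 0 passed with edgeR, DESeq2 or limma-voom and 1 had an unadjusted p below 0.05, with 4 higher without library 5-117 and 1 without 5-140 (sums 71.9 to 122 CPM and 85.5 to 115 CPM). Of 16 macrophage and dendritic cell markers CD209 was lower (-2.07 ± 0.57, and -2.77 without library 6-203), with sums of 167 to 591 CPM and 197 to 279.7 CPM, and 2 were lower without library 4-064. Of 10 B and plasma cell markers 1 was higher, and 0 were without each library other than 4-1314 and 8-275. Of 7 mast cell markers 1, GATA2, was lower (2 without library 8-275), and their sums did not overlap, with 326 to 471 CPM on day 7 and 202 to 241 CPM on day 13, and GATA2 alone reached 427 and 179.6 CPM. Further, of 7 pericyte markers 1 was lower (2 without library 6-338 or 8-275), and of 6 lymphatic markers 1 was higher. The plasma cell gene IGJ, chosen after its values were seen, ranged from 5.80 to 533 CPM on day 7 and from 7.80 to 523 CPM on day 13. Neutrophil genes were scarce, with 7 of 9 below 1 CPM in every library and 0 of 3 tested members past the threshold with any of the 3 tools, also unadjusted. Of 8 erythrocyte genes HBA had no reads and 6 others stayed below 1 CPM in every library. In the luteal and ovarian list CYP19A1 and FSHR had no reads and 6 others stayed below 1 CPM, while 1 of 5 tested members was higher (0 without each library other than 4-064, 5-117 and 5-140). How far these markers take part in the gene changes was not tested.

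The same days were compared in the ipsilateral horn, where 5413 of 18807 genes (28.8%) passed. Of the 5349 contralateral calls tested there, 4238 (79.2%) passed in the same direction and 0 in the opposite one. They make up 79.0% of the 5364 ipsilateral calls tested in both. The test of the difference itself, contralateral change minus ipsilateral change, called 0 of 19641 genes (0%), with 193 at an unadjusted p below 0.05 and a smallest adjusted p of 0.9999. DESeq2 called 0 as well, with 165 at an unadjusted p below 0.05. The median standard error of the difference was 0.27, so differences of that size were not detectable for a typical gene. The fit takes the 20 libraries as independent. Of the 10 contralateral libraries, however, 7 deviated from their group most like an ipsilateral library of the same day with another tag (correlation 0.22 to 0.85 across genes), and 9 of the 10 best matches were mutual. Contralateral 4-064, 5-117 and 6-338 matched ipsilateral 6-338, 4-064 and 5-117, so the tags do not tie the horns of an animal in these data. Uniform p-values would put 982 genes below 0.05 where 193 were found. The 0 calls therefore do not show that the horns changed alike, and the comparison of days within 1 horn does not use the tags as pairs.

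For single genes the differences and their intervals were as follows. IGFBP1 rose by 10.35 ± 0.70 in the contralateral and 8.73 ± 0.91 in the ipsilateral horn, a difference of 1.57 ± 1.24 (95% interval -0.86 to 4.00). For CYP26A1 the difference was 1.06 ± 0.59 (-0.10 to 2.22), for ANPEP -0.15 ± 0.25 (-0.65 to 0.35) and for PGR 0.01 ± 0.33 (-0.63 to 0.66). The 5 genes of smallest p for the difference were COPS8, BMP8B, RNF152, PARP1 and FZD9. BMP8B, a ligand of the TGF-beta family, changed by -2.94 in the contralateral horn and was at -0.97 in the ipsilateral horn, where it did not pass (adjusted p = 0.164). PARP1, a DNA repair enzyme, fell by 0.80 and 0.50. Neither difference passed (adjusted p of 0.9999 for each).

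**Figure D4:**
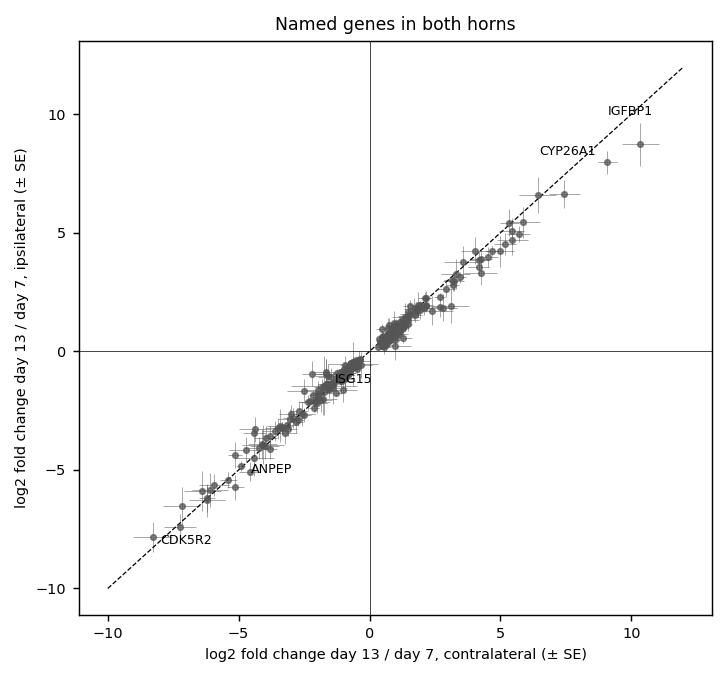
Log2 fold change from day 7 to day 13 of named genes in the contralateral horn (x axis) against the ipsilateral horn (y axis). Bars are standard errors. COPS8, BMP8B, RNF152, PARP1 and FZD9, the genes of smallest p for the horn difference, are not plotted. Their differences (contralateral minus ipsilateral) were -0.23, -2.01, 1.41, -0.34 and -1.65, in that order. The dashed line marks equal change. The plotted points run along the line at both ends, and IGFBP1, CYP26A1, CDK5R2, ANPEP and ISG15 are labelled.

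Days 5 and 16 of the same horn place the step in time, with no test between them here. The means on days 5, 7, 13 and 16 were 0.0578 ± 0.0811, 0.197 ± 0.158, 264 ± 163 and 181 ± 73.5 CPM (SD, n = 5) for IGFBP1, so its day 16 mean was also high. CYP26A1 was at 0.717 ± 0.487, 0.471 ± 0.267, 258 ± 67.9 and 37.7 ± 21.1 CPM, so its day 16 mean lay between those of days 7 and 13. For CFTR they were 7.91 ± 2.14, 3.25 ± 1.49, 169 ± 73.9 and 207 ± 63.02 CPM. ANPEP had its highest mean on day 7, with 435 ± 179, 1553 ± 297, 51.1 ± 8.45 and 39.9 ± 9.62 CPM, as had SLC13A5, with 459 ± 173, 2109 ± 683, 209 ± 77.7 and 27.9 ± 12.4 CPM. LTF followed that shape too, at 343 ± 199, 951 ± 330.0, 60.6 ± 39.9 and 23.6 ± 10.6 CPM.

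PGR, OXTR and MKI67 had their highest means on day 5. PGR had means of 15.3 ± 5.46, 7.41 ± 2.10, 3.59 ± 0.874 and 5.50 ± 2.21 CPM, and MKI67 of 82.96 ± 16.8, 51.5 ± 32.9, 3.19 ± 1.43 and 3.89 ± 2.40 CPM. OXTR was at 64.3 ± 28.9, 8.70 ± 5.43, 3.32 ± 2.48 and 21.5 ± 8.94 CPM, lowest on day 13 and higher again on day 16. MSX1 held its level from day 5 to day 7 and fell after, at 642 ± 111, 702 ± 53.2, 235 ± 64.7 and 159 ± 26.9 CPM. MSTN was low on day 7 alone of the 4 days, at 15.3 ± 3.20, 1.12 ± 0.728, 20.2 ± 6.76 and 14.4 ± 6.60 CPM. CRYGS, a crystallin gene, was at 0.728 ± 0.280, 0.495 ± 0.225, 0.967 ± 1.04 and 18.3 ± 12.9 CPM, highest on day 16, and its change from day 7 to day 13 did not pass (0.96 ± 0.64, adjusted p = 0.288). The days share no animals, and the values of days 7 and 13 are those compared above.

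**Figure D5:**
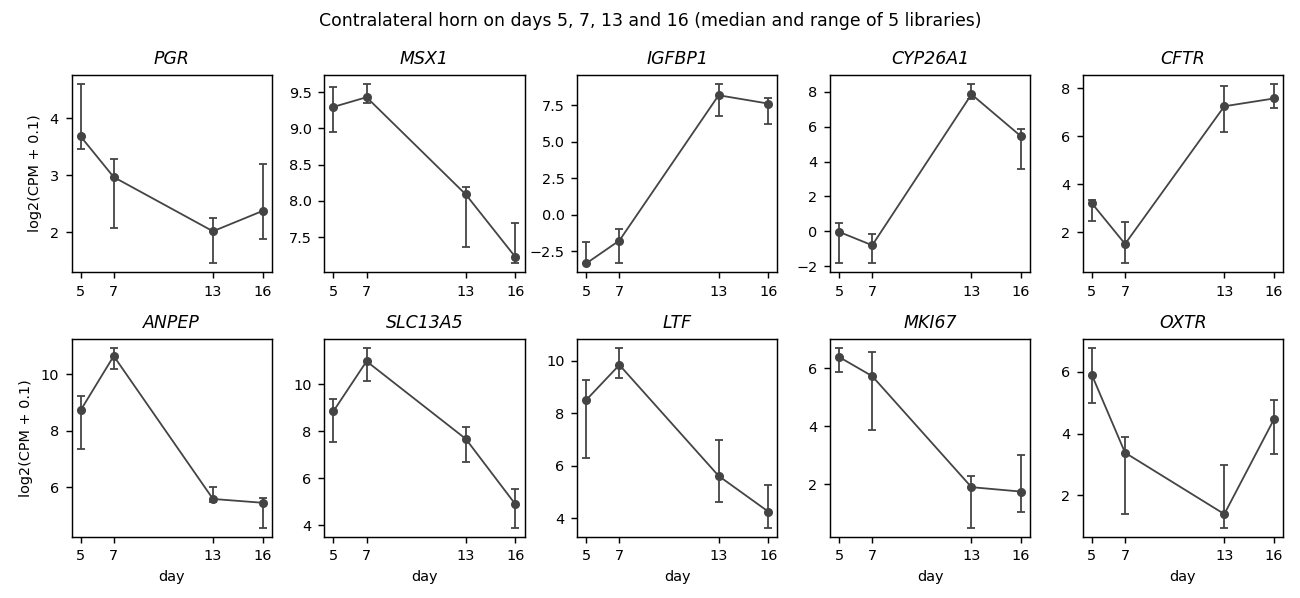
Levels of 10 genes in the contralateral horn on days 5, 7, 13 and 16, as log2(CPM + 0.1), each point the median of 5 libraries with bars from the lowest to the highest. IGFBP1, CYP26A1 and CFTR step up between days 7 and 13. ANPEP, SLC13A5 and LTF are highest on day 7 and lower from day 13. PGR and MKI67 decline from day 5 to day 13, and OXTR is lowest on day 13.

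Of the 179 named genes that passed, SLC2A3 and SLC2A4 not counted, 40 did not when the small RNA share was fitted beside the day. SLC2A3 and SLC2A4, named after their values were seen, did not pass in that fit either. The 40 were BOLA-DOB, CD209, CD55, CLU, CYP51A1, EPCAM, ESR1, FADS2, FGF9, FKBP5, FN1, GREB1, GRP, HIF1A, HMGCS1, IGFBP3, IL6ST, KLF5, LIFR, LOXL1, LPL, LRP6, MYH11, OCLN, OR51E1, PGR, PGRMC2, POSTN, PPARD, PTGER2, PTGES2, PTGIS, RAB25, RPA2, RRM2, SLC1A1, SOCS2, SQLE, TIMP3 and VDR. IGFBP1, CYP26A1, CFTR, PTGS2, ANPEP, SLC13A5, MSX1, WNT7A, IHH, HSPA5 and MKI67 passed in that fit too. Over all 18642 genes tested that fit called 984 higher and 1292 lower, where the fit without the share called 2530 and 2858. The lists with the most called members gave fewer calls there too. Mitosis had 0 higher and 12 lower, protein folding 2 and 12, and immediate early genes 9 and 1. Integrins and junctions had 5 and 6, where lower calls outnumbered higher ones. Cholesterol synthesis had 1 higher and 2 lower, steroid receptors 5 and 1, WNT genes 3 and 2, hedgehog and FGF genes 2 and 3, and amino acid transporters 1 and 3. Triglyceride genes had 2 higher and 10 lower, DNA replication 1 and 5, secreted proteins 8 and 1, complement and antimicrobial genes 2 and 3, mucins 2 and 5, ion transport 2 and 2, calcium handling 2 and 0, retinoids 4 and 0, prostaglandins 3 and 1, collagens 2 and 0, and matrix proteases 4 and 1.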

How the data were processed

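RNA was extracted with Trizol from endometrial homogenate, treated with DNase on a column and made into TruSeq stranded mRNA libraries, per the labels' protocols. FastQC, HISAT2, featureCounts and the bovine build UMD 3.1 are named in the submitters' processing notes, without versions. The deposited values are whole-number counts of reads per gene that the authors made, 1 column for each of 40 libraries, with 32671 named genes. How reads shared by near-identical genes were counted is not stated, so such genes are uncertain, and 27 names that a spreadsheet had turned into dates were not named. A mitochondrial row without a gene name (0.112 to 0.578% of a library) was left out of library totals and tests.

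From the counts, edgeR 4.0.16 in R 4.3.3 gave the results: TMM scaling, filterByExpr, a quasi-likelihood fit of the 10 contralateral libraries and Benjamini-Hochberg adjustment over 18642 genes. The horn comparison was the interaction in a fit of 20 libraries, over 19641 genes. DESeq2 1.42.0 and limma-voom (limma 3.58.1) were among 20 alternatives, of which 10 left out a library. The scripts were tested on simulated data. Displayed CPM use TMM factors over all 40 libraries. Totals of 30.8 to 35.8 M reads keep counting error small for all but the lowest genes. Library measures were compared with two-sided exact permutation tests over 252 arrangements. The labels give each library of a day its own animal tag, and p-values measure the spread between those animals.

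Genes were named by rule: the 15 largest rises and falls of genes with a gene symbol, a mean log2 CPM of 2 or more and no overlap, the 10 most-read genes changed 2-fold, up to 8 called members of each list by smallest p or, where none was called, the 2 of smallest p, 14 chosen genes, 5 genes of the horn comparison, and genes going from at most 0.1 CPM to at least 1 CPM or the reverse. A gene symbol here means any name other than a LOC, ENSBTAG or date name or a repeated entry. The rule gave 273 genes, of which 190 are named. Of the 78 called genes not named, a choice made with their values known, 33 lost the call without at least 1 library. The 29 pathway and 16 cell type lists, like the question itself, were chosen with earlier results of these data known.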

Additional observations from a re-analysis of the deposited data

Results flagged for a closer look

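Of 448 groups of 5 libraries checked for the named genes and lists, 23 had a library whose gap to its nearest neighbour exceeded 0.71 of the group's range, and chance flags about 1 in 20 groups. The library 5-117 of day 7 stood above the others in 2, with 404 CPM of ISG15 against 2.83 to 57.0 CPM and 179 CPM of IRF7 against at most 48.0 CPM. The day 7 library 6-338 had 2.42 CPM of MSTN against 0.722 to 0.909, 0.895 CPM of CRYGS against 0.355 to 0.421, 4.27 CPM of IRS2 against 10.5 to 12.1, and 39.4 CPM of PDK4 against 65.2 to 73.4. The day 7 library 2-1337 had 76.6 CPM of CDK5R2 against 16.3 to 28.3, 65.8 CPM of LOXL1 against 34.1 to 42.8, and 2.63 CPM of PTGER2 against 3.49 to 3.61. In the day 7 library 2-371 PGRMC2 was at 78.4 CPM against 71.8 to 73.4 in the others.

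On day 13 the library 8-275 stood apart for CRYGS (2.77 CPM against 0.159 to 0.888), MUC20 (2.65 CPM against 4.22 to 4.77), PAQR5 (1.73 CPM against 3.78 to 4.52) and the mean level of smooth muscle markers (6.00 against 5.31 to 5.45 on the log2 scale). Library 5-140 did so for ITGB5 (93.3 CPM against 273 to 335) and OXTR (7.71 CPM against 1.83 to 2.59). Library 5-167 had 0.248 CPM of BMP8B against 0.139 to 0.159 and 0.965 CPM of RNF152 against 1.78 to 2.05. Library 6-203 had 1.5 CPM of LRG1 against 0.0559 to 0.331 and 0.222 CPM of SLC2A5 against 0.0551 to 0.0919. Library 4-1314 had 535 CPM of PDIA3 against 508 to 513 and 8.49 CPM of SLC5A11 against 2.67 to 3.94. On day 16 the library 7-107 had 206 CPM of MSX1 against 141 to 153. The causes were not tested.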

How the results depend on the processing

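Across 20 alternatives the day comparison gave 4320 to 6690 genes, apart from the fit with the small RNA share. That fit gave 2276 genes, 984 higher and 1292 lower, and the share and the day cannot be told apart. Leaving out 1 library gave 4320 to 5281 genes, 1934 to 2413 higher and 2386 to 2868 lower, fewest without the day 13 library 4-1314, and 1590 to 1940 at 2-fold or more. Of 179 named genes that passed, SLC2A3 and SLC2A4 not counted, 138 kept call and direction under all 20 alternatives. The other 41 lost the call under at least 1, of which 1 (ESR1) lost it without a library. SLC2A3 and SLC2A4, outside this count, both lost the call with the small RNA share. SLC2A4 also lost it without library 2-1337 or 8-275 and with all 40 libraries fitted. Over all 258 called genes of the naming rule, 150 kept the call and 108 lost it under at least 1, 34 without a library and 99 with the small RNA share. OXTR, SERPINA14 and HERC5, which did not pass in the main fit, passed with DESeq2. OXTR and HERC5 also passed with all 20 contralateral libraries fitted. ISG15 and MX1, which did not pass, turned sign with limma-voom (0.42 and 0.53), with the log2 library total as covariate (0.77 and 0.72), and with the small RNA share (0.83 and 0.58); without a library they ran from -2.25 to 0.74 and from -0.98 to 0.73. Low genes limit the folds, since genes at 0 on 1 day have fitted values that depend on the prior count.

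No paired analysis was possible because days 7 and 13 share no animal tag. Between horns, the fit with the tag as a replicate block called 0 genes, as did the fit without it, with 145 and 193 at an unadjusted p below 0.05. Same-tag libraries deviated together (correlation above 0.1) in 3 of 10 tags, with correlations from -0.34 to 0.80, and 3 libraries matched their own tag best, so the tags were not taken as pairs. Because 7 matched another tag best, neither fit accounts for animals that the horns may share.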
